A study of Mus musculus with 2 samples.

Results

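The lens is built from a sheet of epithelial cells at the front and a mass of elongated fiber cells behind it, and both depend on membrane channels because the tissue has no blood vessels of its own. Here 6 genes for such membrane proteins were followed: the water channels Mip and Aqp1, the fiber membrane protein gene Lim2, and the connexins Gja1, Gja3 and Gje1. They were taken by exact gene symbol from the platform annotation and were represented by 8 of 45281 probes, among 19057 named genes. The data came from 2 arrays, 1 of lens fibers and 1 of lens epithelium, both from wild type mouse lens at stage E12.5. The sources used here do not give the strain, the number of embryos behind each RNA sample or the way the fibers were parted from the epithelium.

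Connexins assemble into ring-shaped channels that dock between neighbouring cells and let ions and small metabolites pass. In the lens they couple the fibers to each other and to the epithelium. Mip, also called Aqp0, forms water pores in the fiber membrane and also acts in adhesion between fibers. Lim2, or MP20, is a further abundant membrane protein of lens fibers, related to the peripheral myelin protein Pmp22. Mutations in Mip, Lim2 and the fiber connexins cause cataract in mice, in people or in both.

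The names Gje1 and Lim2 are shared by other genes, so the identities were read from the gene IDs. The Gje1 probe (ILMN_1227984) carries gene ID 76743, which is Cx23 in RefSeq, and not 118446, the gene Gjc3 (Cx29) for which Gje1 is an older name. The Lim2 probe (ILMN_1247117) carries gene ID 233187, which is MP20, and not the homeobox genes Lhx2 or Lhx5 that share the alias. The other probes were ILMN_1254280 for Mip, ILMN_1244291 for Gja1 (Cx43), ILMN_2632678 for Gja3 (Cx46) and 3 probes for Aqp1.

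RefSeq promoters (build GRCm38.p6, 250 bases before the annotated start to 50 from it) are shown for Mip and Lim2, both brighter on the fibers array, and for Gja1, brighter on the epithelium array. All lie on the plus strand, 5′ to 3′, and capitals mark matches to the motifs described after them. They are chr10:128225560-128225859 (Mip), chr7:43429849-43430148 (Lim2) and chr10:56377050-56377349 (Gja1).
Mip: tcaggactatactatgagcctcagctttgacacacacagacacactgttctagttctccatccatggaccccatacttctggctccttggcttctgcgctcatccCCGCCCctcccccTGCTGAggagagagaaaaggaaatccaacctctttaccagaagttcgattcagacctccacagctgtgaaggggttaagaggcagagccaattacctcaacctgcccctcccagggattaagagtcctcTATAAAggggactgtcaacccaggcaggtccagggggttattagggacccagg
Lim2: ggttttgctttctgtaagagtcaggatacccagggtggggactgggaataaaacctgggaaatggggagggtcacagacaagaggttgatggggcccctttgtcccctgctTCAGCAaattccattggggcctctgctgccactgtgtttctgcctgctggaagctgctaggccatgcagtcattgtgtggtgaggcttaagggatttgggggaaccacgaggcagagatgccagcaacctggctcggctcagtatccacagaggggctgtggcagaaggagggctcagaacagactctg
Gja1: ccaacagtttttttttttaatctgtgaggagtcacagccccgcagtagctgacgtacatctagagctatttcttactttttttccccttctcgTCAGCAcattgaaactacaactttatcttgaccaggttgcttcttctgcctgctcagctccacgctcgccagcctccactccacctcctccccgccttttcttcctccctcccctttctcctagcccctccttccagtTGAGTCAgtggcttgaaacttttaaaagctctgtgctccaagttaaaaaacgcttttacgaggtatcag

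In these windows 5 short motifs were searched on both strands, chosen after the sequences were seen: TGCTGA, the core of the sites of Maf factors; TATAAA, the TATA box; GGGCGG, the GC box; TGANTCA, the AP-1 site; and GAANNTTC, the core of heat shock elements. No promoter of Gje1 was available, so 6 promoters of the other 5 members were searched. The Maf core was matched in the 3 shown and not in that of Aqp1 or in either of Gja3. The matches start 132 bases before the annotated start of Mip on the plus strand, and 139 and 157 bases before those of Lim2 and Gja1 on the minus strand. The Maf core is matched in 19.5% of all 32851 promoters of this length. It was present in the window of Gja1, brighter in epithelium, as well as in those of Mip and Lim2, brighter in fibers. The Mip window also held a GC box match 145 bases before the start, found in 35.7% of promoters. It held TATAAA too, found in 13.6%, which begins 3 bases before the annotated start and overlaps it. The Gja1 window held an AP-1 match 19 bases before the start, found in 7.81% of promoters. None of the 3 windows shown held GAANNTTC, found in 7.86% of promoters. These matches are letters in a window and are not evidence of binding.

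Intensities below are quantile normalized and on a linear scale. A floor was set on each array at the 95th percentile of 1580 probes whose genes, such as olfactory receptors, were assumed not to be expressed in lens. The floor was 32.0 on the fibers array and 44.5 on the epithelium array. Where both arrays exceeded their floors, the log2 ratio of the fibers value to the epithelium value was taken. Where a single array did, its value was divided by the opposite floor, which bounds the fold from below and is written "at least". With 1 array per group there is no replicate, so no difference was tested, and each ratio describes these 2 arrays only.

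Of the 6 genes, 5 exceeded a floor. Mip, Lim2 and Gje1 were brighter in fibers, each by 2-fold or more, and Gja1 and Aqp1 were brighter in epithelium by as much. Gja3 was below both floors. Over all 6451 genes above a floor, 15.6% passed 2-fold in favour of fibers and 19.0% did so in favour of epithelium. The ratio of 1 member was measured on both sides and those of the other 4 were bounds. RNA pooled over the cells of a sample cannot tell fewer cells of a type from less RNA per cell.

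**Figure D1:**
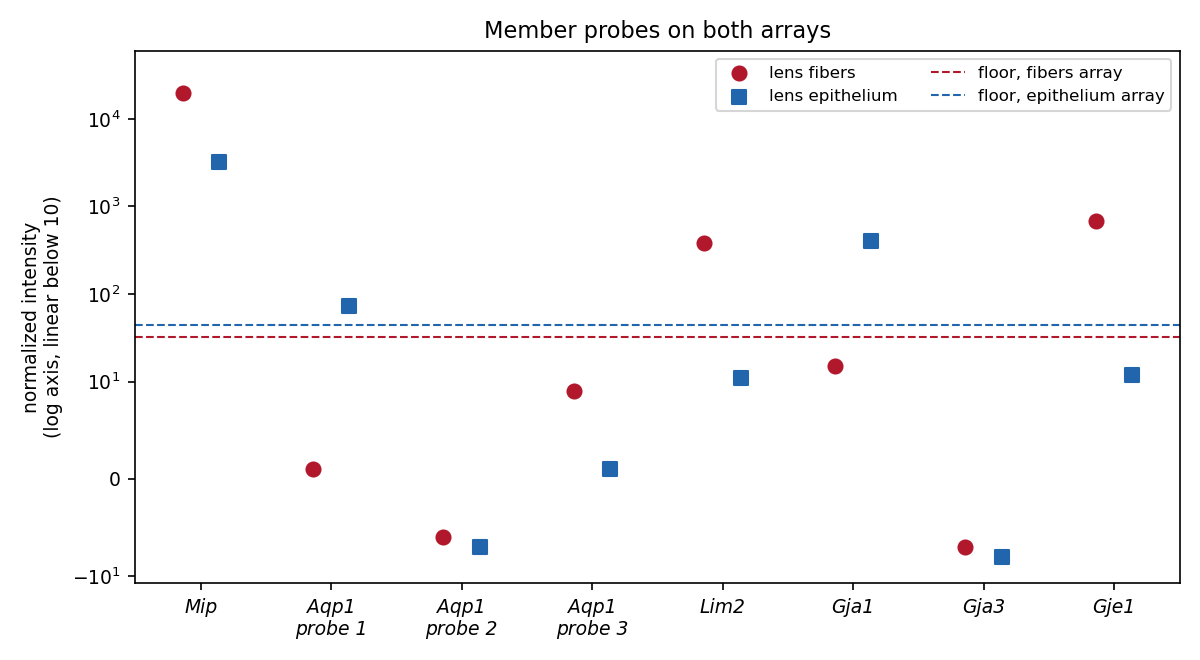
Normalized intensity of each member probe (log axis, linear below 10) on the fibers array (red circles, left) and the epithelium array (blue squares, right), with the floor of each array dashed. Mip lies above the floor on both arrays, Lim2 and Gje1 on the fibers array only, and Gja1 and 1 of 3 Aqp1 probes on the epithelium array only.

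Among the water channels, Mip read 19878 in fibers and 3206.5 in epithelium, a log2 ratio of 2.63 (6.20-fold higher in fibers). The deposited values, before normalization, were 19168 in fibers and 3193 in epithelium. Among 2986 genes above both floors this log2 ratio ranked 38, counted from the highest in fibers, and 95% of those genes lay between -2.31 and 2.17. The 32 silent probes that passed both floors ran from -2.31 to 2.36 (SD 0.84 over probes), so the ratio of Mip lay above the highest of them. The epithelium signal of Mip was 16.1% of its fibers signal. No silent probe read as high as Mip on either array.

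Aqp1, which in the eye serves water transport in the lens epithelium and in the cornea, read 1 in fibers and 73 in epithelium on probe ILMN_2756486. This made it at least 2.28-fold higher in epithelium. On the epithelium array 37 of 1580 silent probes (2.34%) read as high. The other 2 probes of Aqp1 were below both floors, at 9 in fibers and 1 in epithelium for ILMN_2980663, and at -6 in fibers and -7 in epithelium for ILMN_2980661. The probes of Aqp1 therefore disagree, and the value rests on 1 of 3. With the stricter floor at the 99th percentile of the silent probes Aqp1 was below the floor on both arrays, and with a common floor of 44.5 it was at least 1.64-fold higher in epithelium.

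Lim2 read 381 in fibers and 11 in epithelium, where it was below the floor. This made it at least 8.56-fold higher in fibers. Among the silent probes of the fibers array, 1 of 1580 read as high. The epithelium signal was at most 11.7% of the fibers signal. Of the related genes, Pmp22, Emp1 and Emp3 were below both floors on all of their probes, and Emp2 read 1 in fibers and 44.5 in epithelium, exactly at the floor.

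Among the connexins, Gje1 read 690 in fibers and 12 in epithelium, below the floor, and was at least 15.5-fold higher in fibers. Cx23, the protein of Gje1, is known from a mouse mutant with disturbed development of lens fibers. None of 1580 silent probes read as high on the fibers array, and the epithelium signal was at most 6.45% of the fibers signal. Bounds or ratios of 8-fold or more in favour of fibers were found for 0.806% of the 6451 genes. That size was picked after the values were seen, and Lim2 and Gje1 were the members that reached it. So did the housekeeping genes Psmb2 (at least 8.54-fold) and Rab7 (9.05-fold), each on its brightest probe. Other probes of Psmb2 were 3.04-fold and 1.01-fold higher in fibers, and those of Rab7 were below both floors. Lim2 and Gje1 have no other probe.

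Gja1, the connexin of the lens epithelium, read 15 in fibers, below the floor, and 399 in epithelium. It was at least 12.47-fold higher in epithelium, a direction in which 1.10% of genes reached 8-fold or more. On the epithelium array 2 of 1580 silent probes read as high as Gja1, while on the fibers array 239 did (15.1%). Gje1 and Gja1 thus lay on opposite sides of the comparison, each below the floor on the array where the other was bright.

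Gja3, the connexin Cx46 of mature fibers, read -7 in fibers and -8 in epithelium. On the fibers array 93.4% of the silent probes read as high or higher, and on the epithelium array 96.3% did. Its single probe was not above background on either array and has no ratio, which does not show that the transcript is absent.

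**Figure D2:**
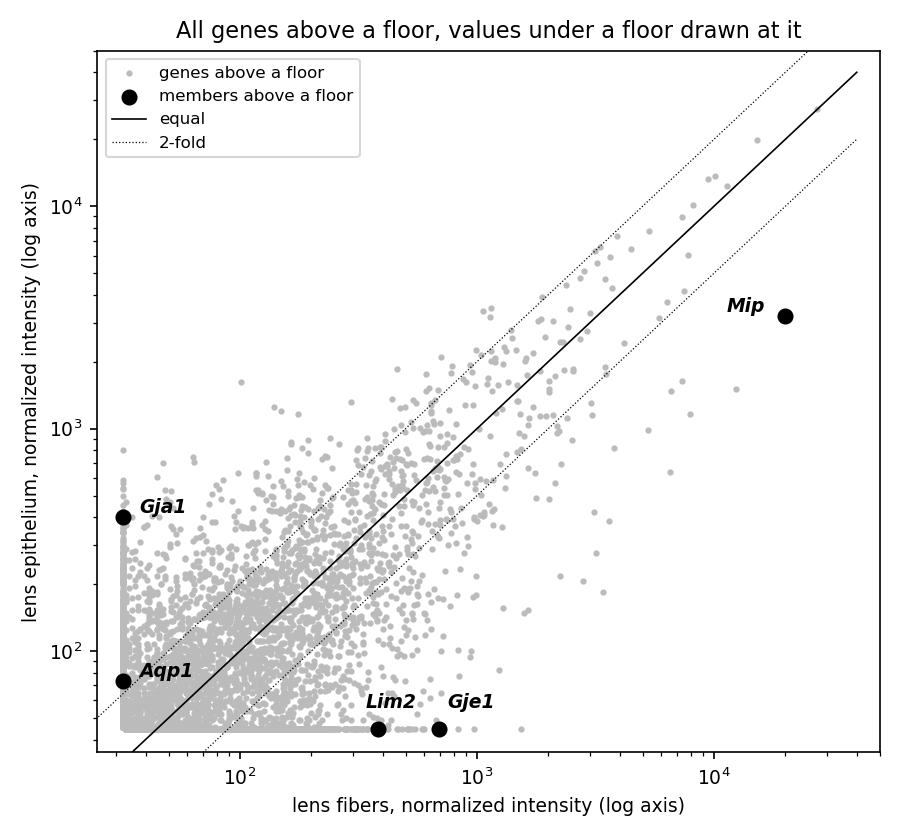
Normalized intensity in lens fibers (x) against lens epithelium (y), both on log axes, for all genes above a floor (grey), with members above a floor in black and values under a floor drawn at it. Mip, Lim2 and Gje1 lie below the lower 2-fold line, on the fibers side, and Gja1 and Aqp1 lie above the upper one.

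The rest of the connexin family gave no signal above background. The 20 mouse connexin genes listed had probes for 16, of which Gje1 and Gja1 were above a floor. Over all named genes 33.9% were. The 24 probes of the 13 connexins outside the 6 members were all below both floors, with deposited intensities from -8 to 31 in fibers and from -7 to 38 in epithelium. They include Gja4 and Gja5, connexins of blood vessels, and Gjc1. The 5 probes of the pannexins Panx1, Panx2 and Panx3, counted apart from the connexins, were also below both floors. Of 12 aquaporin genes, all with probes, 3 were above a floor: Mip, Aqp1 and Aqp7, a channel that also passes glycerol. Aqp7 read 99.5 in fibers and 152.5 in epithelium (log2 ratio -0.62, 1.53-fold) on 1 probe, and its other 3 probes were below both floors. The remaining 9 aquaporin genes were below both floors. Aqp5, a water channel known from the adult lens, was among them at 1 in fibers and 5 in epithelium.

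**Figure D3:**
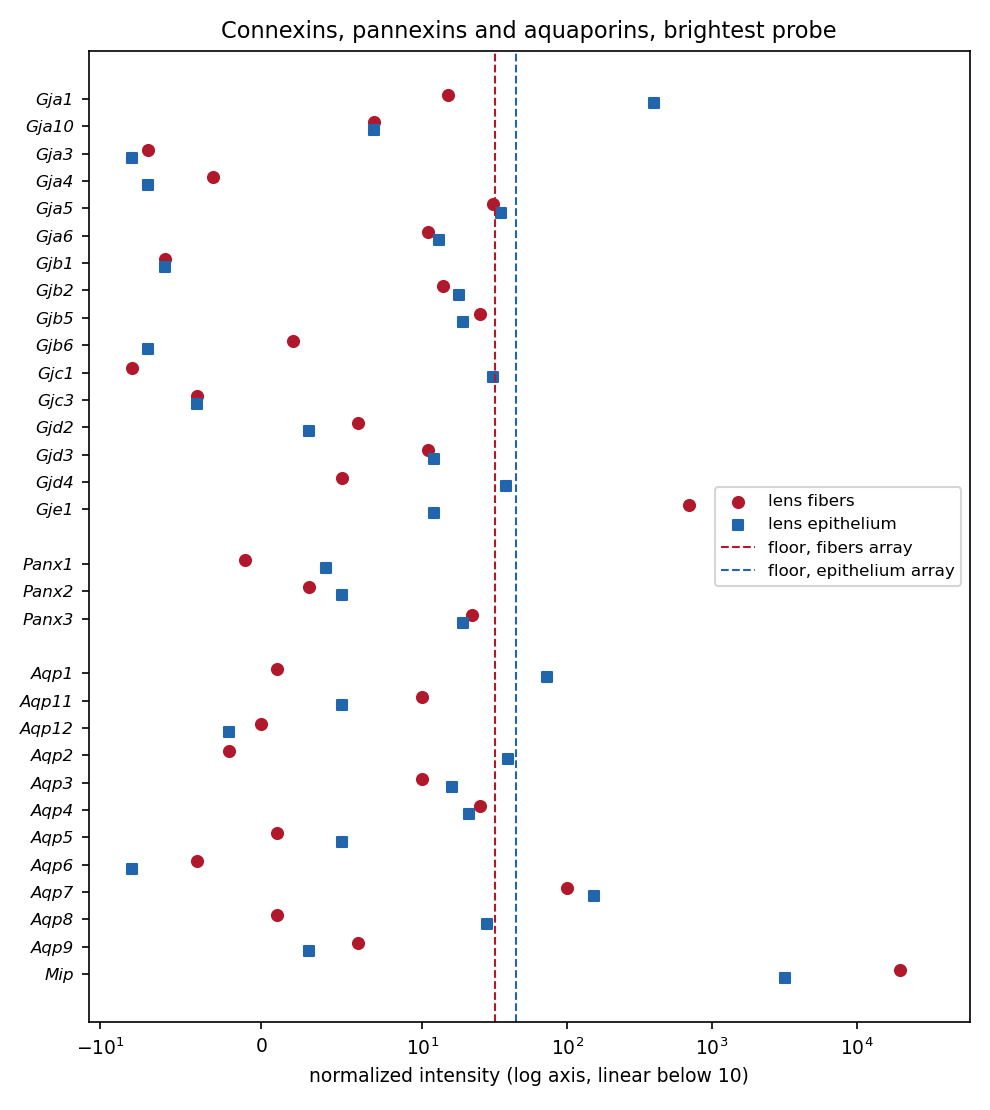
Normalized intensity (x, log axis, linear below 10) of the brightest probe of each connexin, pannexin and aquaporin gene in lens fibers (red circles) and lens epithelium (blue squares), with the floors dashed. Gje1, Mip and Aqp7 exceed the fibers floor, and Gja1, Aqp1, Aqp7 and Mip exceed the epithelium floor.

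Proteins known to bind or modify these channels were read from a list of 14 genes, of which 10 had probes and 6 were above a floor. Of these, 4 passed 2-fold in favour of fibers and none in favour of epithelium, against 15.6% and 19.0% of all genes above a floor. For Prkca, Bfsp2 and Akap2 the value is a bound, since in epithelium they did not exceed the floor. Housekeeping genes leaned the same way, with 7 of 15 past 2-fold in favour of fibers and none in favour of epithelium. Tjp1, the scaffold ZO-1 that binds connexins, read 316 in fibers and 70 in epithelium (4.51-fold). Prkca, a protein kinase C that phosphorylates connexins, read 302.5 in fibers and 18 in epithelium (at least 6.80-fold higher in fibers), while its second probe was only at least 1.07-fold higher. Bfsp2, the beaded filament protein that binds Mip, read 178 in fibers and 12 in epithelium (at least 4-fold higher in fibers). Akap2, a kinase anchor of Mip, read 207.5 in fibers and 18 in epithelium (at least 4.66-fold higher). A second Akap2 probe read 75 in fibers and 135 in epithelium (log2 ratio -0.85), and its remaining probes were below both floors. Csnk1d and Dbn1, partners of Gja1, had a log2 ratio of -0.78 and a bound of -0.70, under 2-fold. Each value rests on a single probe, since the other probes of both genes were below both floors. Src, Cav1, Ccn3 and Lgals3 were below both floors.

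The members were set beside markers of the labelled tissues. All 8 fiber markers with a probe, Mip and Lim2 among them, passed 2-fold in favour of fibers. The ratios of those above both floors ran from 5.33-fold for Cryba1 to 18.5-fold for Crybb1, on the brightest probe of each. A second Cryba1 probe was 2.24-fold higher in fibers. The epithelium signal of these markers was also read as a share of the fibers signal. It was 5.41% for Crybb1, 8.66% for Cryaa, 9.26% for Grifin and 11.3% for Crygs. For Mip it was 16.1% and for Cryba1 18.7% (44.7% on its second probe). Whether fiber RNA in the epithelium sample contributes to the Mip signal there was not tested. Of 5 epithelium markers, Gja1 (itself a member), Cdh1, Pax6 and Pdgfra passed 2-fold in favour of epithelium, and Foxe3 was below both floors. The second probes of Cdh1 and Pdgfra were below both floors, and that of Pax6 was 3.59-fold higher in epithelium.

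Other cell types also express Gja1 or Aqp1. Erythroid cells carry Aqp1, and their markers, 2 of 7 above a floor, summed to 223.5 in fibers and 164.5 in epithelium, with Alas2 and Hba-x at or below 0 on both arrays. Most of these sums came from Hbb-y and Hba-a1, and a second Hbb-y probe read 75 in fibers and 90 in epithelium. Endothelial markers, 1 of 6 above a floor, summed to 111.5 in fibers and 71 in epithelium, with Emcn at or below 0 on both. Periocular mesenchyme markers, 1 of 8 above a floor, summed to 64 in fibers and 260.5 in epithelium, most of it from Tfap2b, with Col1a1 and Pdgfrb at or below 0 on both arrays. Pigment cell markers, 1 of 5 above a floor (Pmel, at 11 in fibers and 56 in epithelium), summed to 37 in fibers and 140.5 in epithelium. Macrophage markers, 2 of 5 above a floor, summed to 73 in fibers and 86.5 in epithelium, with C1qa and Cx3cr1 at or below 0 on both. Retina markers, none of 4 above a floor, summed to 12 in fibers and 29 in epithelium, with Six6 at or below 0 on both. Surface ectoderm markers, 1 of 4 above a floor, summed to 92 in fibers and 97 in epithelium. The gene above a floor, Krt5, read 65 in fibers and 49 in epithelium. No direction is read from any of these sums, because values under the floors enter all of them. The retina and surface ectoderm sums differ through such values. The highest endothelial marker in epithelium read 35 and the highest pigment cell marker in fibers 14, both below the floor. A second Pmel probe read 34 in fibers and 24 in epithelium. The part of these cell types in the values of Gja1 and Aqp1 was not tested.

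By a fixed measure, the distance between the log2 intensities of 2 genes on both arrays, the genes nearest to each member were read within its own class of detection. Values under a floor were set to the floor, so for the 4 members above 1 floor only, the distance rests on that array alone. With 2 arrays this says little, and probe brightness is not a level that can be set against that of another probe. For Mip, among 2985 genes above both floors, the nearest was the beta crystallin gene Cryba4 at 12383 in fibers and 1511.5 in epithelium, a distance of 1.28, followed by Actb (1.46) and Gemin2 (1.64). For Gje1 the nearest of 2306 fibers-only genes were Sptb, Capn3 and Nyap1, at distances of 0.21, 0.22 and 0.23. For Lim2 they were Palm, Psmb2 and Impact, all within 0.010. For Gja1 the nearest of 1157 epithelium-only genes were Cdca3, Prmt8 and Wbp1, all within 0.0072. For Aqp1, 14 other genes lay at distance 0, and the first by name were Aloxe3, Apoc4 and Ccdc126.

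The sizes depended on scaling and floor. Housekeeping genes, 15 of 17 above a floor, had a median log2 ratio of 0.84. Scaled to them, the median of all genes above a floor was -0.59 in place of 0.00, Mip was 3.46-fold higher in fibers, Lim2 at least 4.77-fold and Gje1 at least 8.65-fold, and Gja1 and Aqp1 were at least 22.4-fold and at least 4.09-fold higher in epithelium. With the stricter floor the bounds were at least 3.45-fold for Lim2 and at least 6.24-fold for Gje1 in favour of fibers, and at least 4.94-fold for Gja1 in favour of epithelium.

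**Figure D4:**
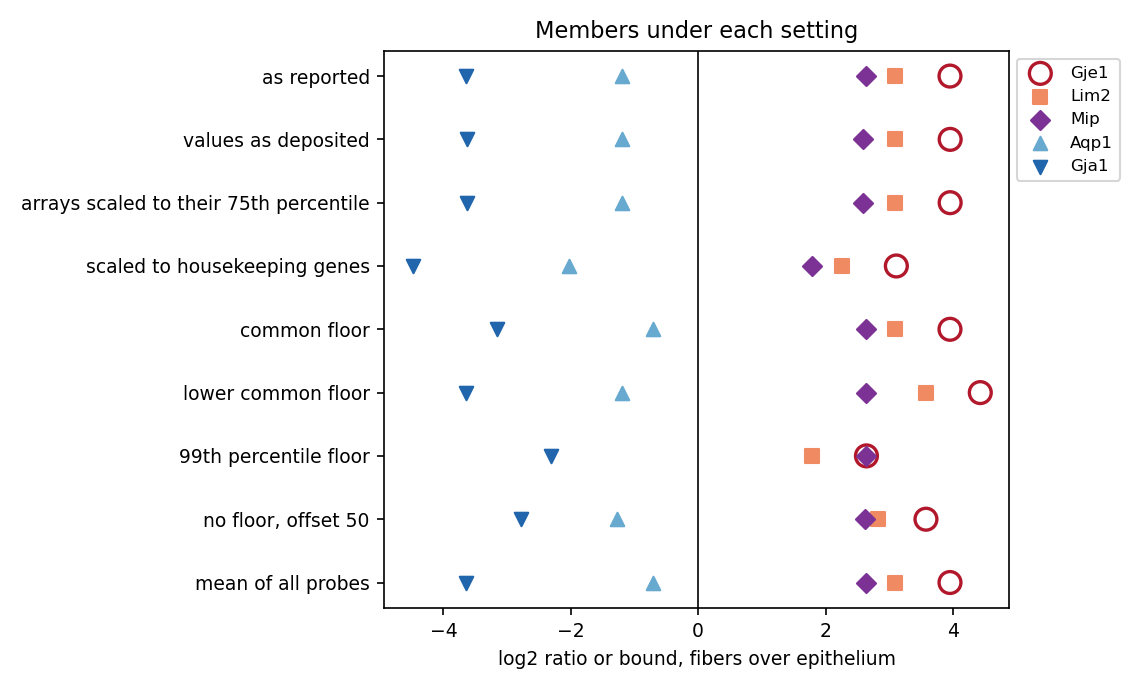
The log2 ratio or bound of fibers over epithelium (x) for each member above a floor, under the reported setting and 8 alternatives (rows). Mip, Lim2 and Gje1 stay to the right of 0 and Gja1 and Aqp1 to the left in every row where they have a value, which for a bound is fixed by its construction. Aqp1 has none with the 99th percentile floor, where Mip and Gje1 nearly coincide.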

How the data were processed

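Per the labels' protocols, biotin-labelled total RNA from a spin column preparation was read on Illumina arrays, 1 array per sample. The authors deposited a linear intensity for every probe as whole numbers, with values down to -16, so a background had been subtracted. Software, any scaling and the genome build are not given in these sources. The number of arrays limits the precision.

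From these, the arrays were given a common distribution by quantile normalization of the linear values. Probes were named through the platform annotation, with symbols updated by gene ID: 34885 had 1 symbol, and 10396 had none or several and were left unnamed. Each gene was read from the probe with the highest sum over both arrays. The floor came from 1580 probes for 1308 genes that encode keratin-associated proteins or receptors of the olfactory, vomeronasal and trace amine families. For 720 genes a bound lay under 1 and no direction was given. They count as a log2 ratio of 0.

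With 1 array per group no test was made. The members, lists and settings were chosen with earlier results of these data known. The named genes are the members, the genes of the connexin, pannexin, aquaporin, Lim2 family and partner lists above a floor, and the 3 genes nearest to each member. Genes named outside this rule, in the marker lists and below the floors, were named after their values were seen. Calculations used Python 3.11.15, numpy 2.4.6 and pandas 2.3.3, and the ratios were tried on simulated data. That simulation was nearly free of noise and changed only genes well above the floor. It therefore checked neither the bounds nor the spread between arrays.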

Additional observations from a re-analysis of the deposited data

How the results depend on the processing

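All 5 members with a value kept their direction under each of 8 alternative settings, and under 1 lower common floor added after seeing the data, wherever a value could be had. A value was taken as changed when it moved by 1.5-fold or more. Of 93 values computed under the alternatives 71 stayed within this and 22 did not. Values as deposited and 75th percentile scaling changed none, and for the members these settings gave the same values as each other. Several of the 71 could not change, so this count is no measure of stability. The floors tried do not enter the ratio of Mip. The common floor leaves the bounds of Lim2 and Gje1 as they were, and the lower common floor those of Gja1 and Aqp1. Members with 1 probe keep their value under the mean of probes. Scaled to housekeeping genes, the log2 ratios of fibers over epithelium were 3.11 (Gje1), 2.26 (Lim2), 1.79 (Mip), -2.03 (Aqp1) and -4.48 (Gja1), with 293 genes past 2-fold in favour of fibers and 2745 in favour of epithelium, in place of 1007 and 1225, and 2 aquaporins higher in epithelium in place of 1. With the 99th percentile floor they were 2.64 (Gje1), 1.79 (Lim2) and -2.31 (Gja1), with 346 genes higher in fibers and 468 in epithelium. With no floor and an offset of 50, Gja1 had -2.79. With the mean of all probes 515 and 697 genes passed 2-fold in favour of fibers and of epithelium, and with the second brightest probe 592 and 622. Under the common floor, the 99th percentile floor, the mean of probes and the second brightest probe, 0 aquaporins passed 2-fold in favour of epithelium, because Aqp1 was then under 2-fold or below the floor. The causes of the other shifts were not tested. Under the second brightest probe the 5 members with 1 probe kept that probe, which is no check of them, and Aqp1 had no value. Where a member was below a floor, its bound is set by that floor and cannot change sign, so for the other 4 members than Mip the kept direction is no check, except with no floor. No paired analysis was possible because each group has 1 array and no test was made.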

Other observations

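In the connexin, pannexin, aquaporin and Lim2 families 4 probes exceeded neither floor of their own array but lay above the lower of the 2 floors. These were Emp2 at 1 in fibers and 44.5 in epithelium, Aqp2 at -2 in fibers and 39 in epithelium, Gjd4 at 5 in fibers and 38 in epithelium, and Gja5 at 31 in fibers and 35 in epithelium. All 4 read above 32.0 on the epithelium array only, and each gene with several probes had its other probes lower still.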
